A study of Mus musculus with 8 samples.

Results

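The S100 calcium-binding proteins were followed here in co-cultured 3T3-L1 pre-adipocytes and RAW264.7 macrophages. The 10 genes described are S100a1, S100a3, S100a4, S100a6, S100a8, S100a9, S100a10, S100a11, S100a13 and S100b, taken as every non-control probe whose accession belonged to one of them, which gave 12 probes among 39429. They are 10 of the 20886 genes that the probes could be matched to, and 6 of the 10 could be measured in both channels on all 8 arrays. The genes were selected on their values on these same arrays, so their levels and differences are given as a description and without any test. The study asked how hormones of stress alter transcription in fat precursor cells and macrophages grown together.

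The groups were co-cultures given cortisol (100 µM), serotonin (100 µM) or both hormones (100 µM of each by the sample labels) for 48 h, and untreated co-cultures. Each group was measured in 3T3-L1 cells, a mouse embryonic fibroblast line that can become adipocytes, and in RAW264.7 cells, a mouse macrophage-like line. Every sample, the untreated ones included, had been grown in a transwell co-culture, in which a porous insert separates the cell lines, and the cells of the lower well were taken. The methods state DMSO stock solutions for the hormones and no vehicle for the untreated cultures. There was 1 array per cell line and condition, hence no replicates. Cy5 marked the sample on each array and Cy3 the reference RNA shared by all arrays, which the methods describe as a pool from untreated cells of both kinds cultured singly and the sample labels as a mixture of all samples.

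All 4 arrays of 3T3-L1 cells were on one slide and all 4 of RAW264.7 cells on the other, and each treatment had the same position on both slides, so cell line and slide, and treatment and position, cannot be told apart. The methods also state different cell numbers in well and insert depending on which cell line was in the lower well. Cell line cannot be told apart from these numbers either. Between 43.7% and 47.8% of the 43020 spots of an array were well above background in both channels, no spot was saturated, and 255 to 817 spots per array carried an outlier flag of the scanner software. Of 12 fibroblast markers, 11 or 12 were above background on each array of 3T3-L1 cells, and their summed Cy5 signal was 2377 to 3152 per 1000000 units of all Cy5 signal (ppm) there, against 30.3 to 36.0 ppm on the arrays of RAW264.7 cells, where 8 or 9 of the 12 were above background. Of 11 macrophage markers with a probe, 8 were above background on each array of 3T3-L1 cells and 10 or 11 on each array of RAW264.7 cells, with sums of 112 to 210 ppm against 2302 to 2595 ppm. Of the macrophage markers, Spi1, Adgre1 and Fcgr1 were below background on every 3T3-L1 array, while others such as Csf1r, Cd14, Tyrobp and Itgam were above it on every one. Of the fibroblast markers, Pdgfra, Fap and Postn were below background on every RAW264.7 array. Only 2 or 3 of 8 adipocyte markers were above background in 3T3-L1 cells. Glucocorticoid targets had a median difference from untreated of -0.24 on the 3T3-L1 array labelled cortisol, 0.78 on the array labelled serotonin and likewise 0.78 with both hormones (log2 scale, 8 genes). On the RAW264.7 arrays the medians in the same order were -0.29, 0.36 and 0.16 (7 genes), so the arrays are called by their labels, and whether the labels of the single hormones are exchanged was not settled.

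S100 proteins are small calcium sensors of the EF-hand type. Inside the cell they bind target proteins such as annexins and myosin when calcium rises, and several are also released and act on receptors of neighbouring cells. S100a8 and S100a9 form calprotectin, a zinc-chelating and pro-inflammatory complex that neutrophils and monocytes carry in quantity and that activates Tlr4 and the receptor Ager (RAGE). In adipose tissue, S100a8 is known as a signal between adipocytes and macrophages in obesity.

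Of the 10 genes, 9 lie on mouse chromosome 3, in a cluster of 15 S100 genes, and S100b lies on chromosome 10. In the order of the RefSeq gene table, S100a8 and S100a9 are neighbours in the main block of the cluster. S100a11 and S100a10 are neighbours of each other and are separated from S100a9 by 56 protein-coding genes. S100a1 and S100a13 are transcribed away from each other, and their annotated starts are at 90514330 and 90514435 on chromosome 3 (GRCm38.p6).

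The upstream sequences of S100a8 and S100a9 are shown because these adjacent genes form one protein complex and S100a8 gave the largest changes described below. Each is the 250 bases before the RefSeq transcript start, 5′ to 3′ on the gene's own strand (GRCm38.p6). S100a8 is at chr3:90668821-90669070 on the plus strand and S100a9 at chr3:90695722-90695971 on the minus strand. Capitals mark C/EBP-type motifs (TTNNGNAA) and the TATA box (TATAAA), searched on both strands.
S100a8: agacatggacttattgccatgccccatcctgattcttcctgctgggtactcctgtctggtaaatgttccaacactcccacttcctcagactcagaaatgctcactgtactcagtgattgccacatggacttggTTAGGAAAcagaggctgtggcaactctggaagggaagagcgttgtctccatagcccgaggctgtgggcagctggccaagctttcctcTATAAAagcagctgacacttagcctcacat
S100a9: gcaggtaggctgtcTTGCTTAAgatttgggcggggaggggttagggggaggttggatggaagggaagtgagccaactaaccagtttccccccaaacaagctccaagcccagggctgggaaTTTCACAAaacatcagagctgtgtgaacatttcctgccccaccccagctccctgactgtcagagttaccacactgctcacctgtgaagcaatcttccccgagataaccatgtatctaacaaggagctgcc

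The S100a8 window held 1 C/EBP-type motif at positions -117 to -110 from the start and a TATA box at -30 to -25. The S100a9 window held 2 C/EBP-type motifs, at -236 to -229 and -130 to -123, and no TATAAA. C/EBP-type motifs occurred in 36.8% of 32851 RefSeq promoter windows of the same length and the TATA box in 12.4%, and among the 9 S100 genes with a listed promoter, C/EBP-type motifs occurred upstream of 3. The AP-1-type motif TGANTCA, found in 6.75% of all windows, was met among these genes only upstream of S100a11, in 2 copies. The NF-kB-type motif (45.8% of all windows) and the E-box CANNTG (66.2% of all windows) were upstream of 5 and 7 of the 9 genes. The 9 genes had 12 windows, and a gene counted if any of its windows held the motif. The percentages are per window, so the gene counts and the percentages are not on the same basis. Neither the STAT-type motif TTCNNNGAA (7.02% of all windows) nor the glucocorticoid half-site TGTTCT (16.1% of all windows) was in the S100a8 or S100a9 window. The marked motifs overlapped no other searched motif. These are matches of letters and were not tested as binding sites.

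Of the 6 genes measured on all 8 arrays, S100a8 and S100a11 were higher in 3T3-L1 cells on every array, against 35.4% of all 10969 genes measured on all arrays. S100a1 was higher in RAW264.7 cells on every array, against 34.8% of all genes. S100a3, S100a10 and S100a13 overlapped between the cell lines. Since 1 cell line filled each slide, and the genes were selected on these ratios, nothing is read from these counts.

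**Figure D1:**
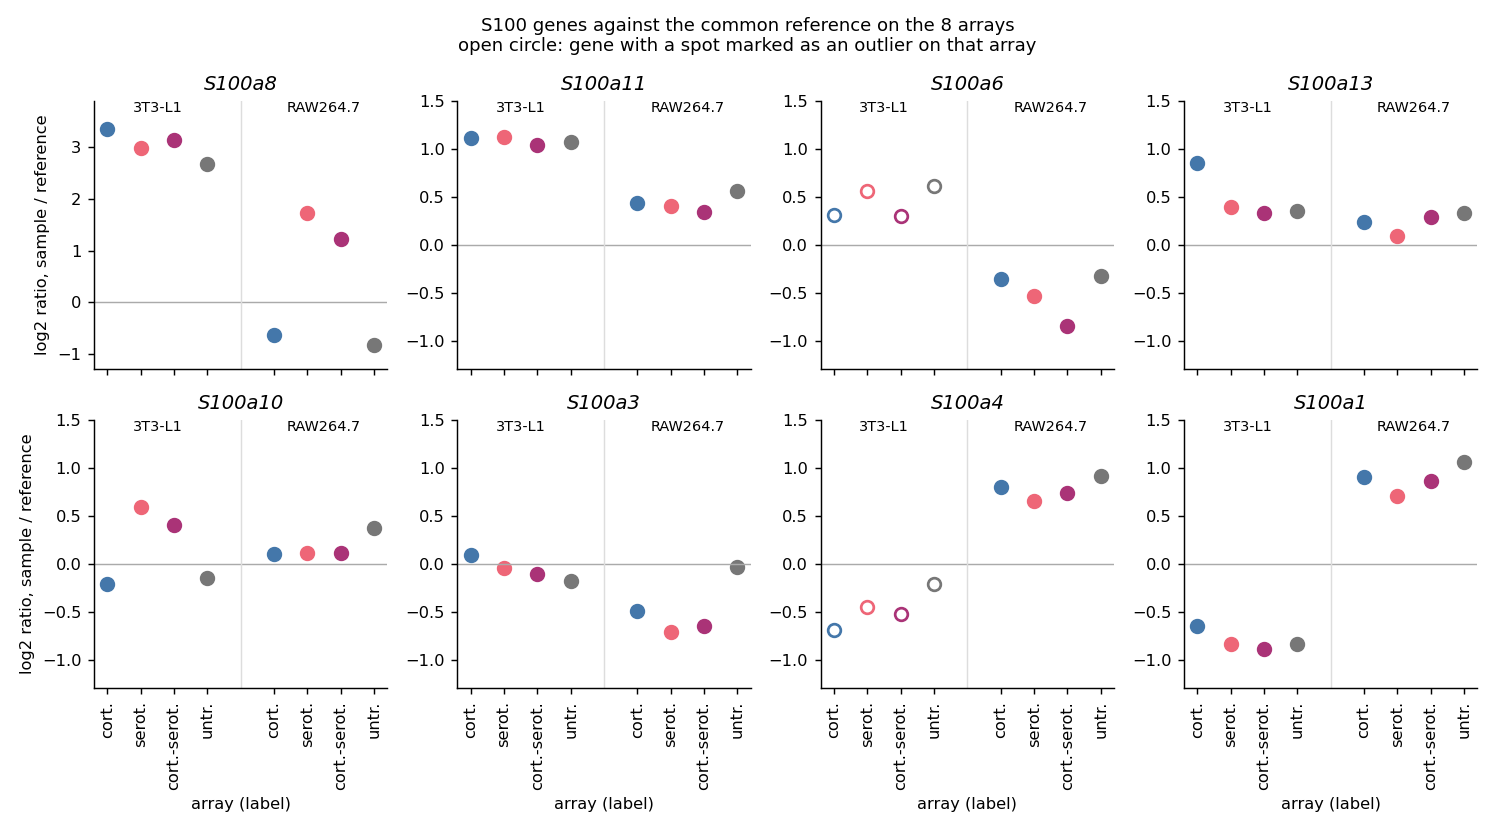
Log2 ratio of sample to reference (y axis) of 8 S100 genes on each array (x axis), with 3T3-L1 arrays left and RAW264.7 arrays right and the untreated array last in each; filled points are 1 array each and open points rest on a spot with an outlier flag. S100a8 is drawn on a wider y axis than the others, and its RAW264.7 points labelled serotonin and cortisol-serotonin (1.72 and 1.23) stand above those labelled cortisol and untreated (-0.64 and -0.83).

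S100a8 varied most of the 6 genes measured on all arrays. Its log2 ratio to the reference was 3.34 on the 3T3-L1 array labelled cortisol, 3.00 on that labelled serotonin, 3.15 on that labelled cortisol-serotonin and 2.68 on the untreated array. In RAW264.7 cells it was -0.64 on the array labelled cortisol, 1.72 on that labelled serotonin, 1.23 on that labelled cortisol-serotonin and -0.83 on the untreated array. All 4 arrays of 3T3-L1 cells were therefore above all 4 of RAW264.7 cells, and within RAW264.7 cells 2 arrays were high and 2 were low. The mean difference, 3T3-L1 minus RAW264.7, was 2.67 ± 1.29 (SD over the 4 conditions), or 6.38-fold. It was 3.51 between the untreated arrays and 1.27 between the arrays labelled serotonin.

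Against the untreated array of RAW264.7 cells, S100a8 was higher by 5.86-fold with the label serotonin (log2 difference 2.55 ± 0.35) and by 4.16-fold with the label cortisol-serotonin (2.06 ± 0.32). The error given with a difference is the scanner software's own error of both log ratios combined and covers the technical noise of the spots only. With the label cortisol the difference was 0.18 ± 0.30, within that error. Among all genes measured in the comparison, ranked by difference with the highest first, S100a8 was number 2 of 12676 with the label serotonin and number 1 of 13339 with the label cortisol-serotonin. Both comparisons share the untreated array, so their agreement is no independent repeat. In 3T3-L1 cells the differences were 0.66 ± 0.52, 0.31 ± 0.49 and 0.46 ± 0.50 for the arrays labelled cortisol, serotonin and cortisol-serotonin, all under 2-fold and 2 of them within the error.

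The reference channel gave a check of the S100a8 spot, since the same RNA was hybridised to each array. The processed Cy5 signal of S100a8 in RAW264.7 cells was 730 units on the array labelled cortisol, 2378 on that labelled serotonin, 4166 on that labelled cortisol-serotonin and 801 on the untreated array. The Cy3 signal of the reference at this spot was 1046, 593, 1528 and 1317 units on the same arrays. On the array labelled serotonin the log2 change of the Cy5 signal against untreated was 1.57 while that of the Cy3 signal was -1.15, so the ratio moved more than the unscaled signal of the sample. On the array labelled cortisol-serotonin the same changes were 2.38 and 0.21. These units are not scaled for the brightness of an array. On the RAW264.7 array labelled serotonin the Cy3 signal was also lower than untreated at S100a11 (3674 against 6473 units) and less so at S100a1 (689 against 713 units). How much of the Cy3 change at S100a8 was particular to its spot was not tested. As a share of all Cy5 signal of an array, S100a8 took 7.54, 35.0 and 35.0 ppm on the arrays labelled cortisol, serotonin and cortisol-serotonin, and 7.56 ppm on the untreated array. In 3T3-L1 cells it took 106, 80.4 and 86.6 ppm on these arrays, against 71.2 on the untreated array.

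**Figure D2:**
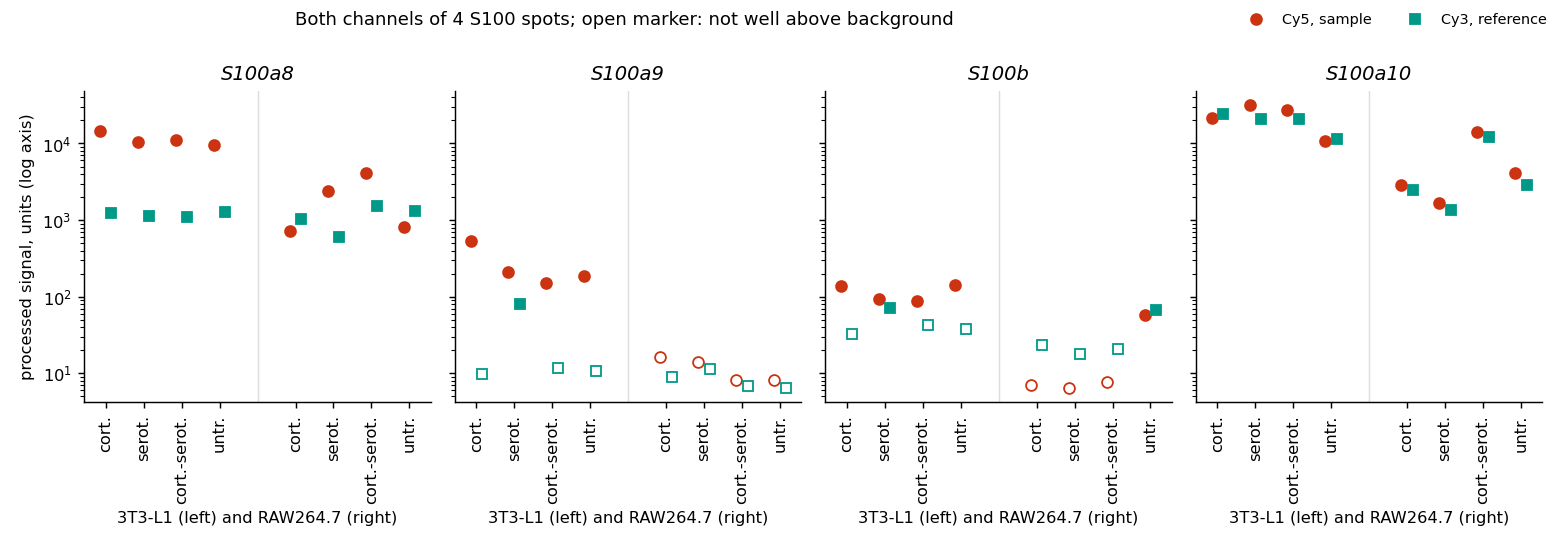
Processed signal in units on a log axis (y) of the S100a8, S100a9, S100b and S100a10 spots on each array (x), for the sample (Cy5, circles) and the reference (Cy3, squares); open markers were not well above background. The reference of S100a8 stays between 593 and 1528 units, that of S100a10 spans 1367 to 24213 units, and S100a9 is above background in the sample on the 3T3-L1 arrays only.

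S100a9, the partner of S100a8 in calprotectin, was detected in 3T3-L1 cells only. Its Cy5 signal was 527 units on the 3T3-L1 array labelled cortisol, 209 on that labelled serotonin, 152 on that labelled cortisol-serotonin and 185 on the untreated array. On the RAW264.7 arrays it was 16.4, 14, 8.13 and 8.16 units in the same order, below background on all 4, including those where S100a8 was high. The reference was below background at this spot on 7 of 8 arrays, so no ratio was formed. After normalisation of both channels, the Cy5 signal of S100a9 was at least 2.56-fold higher in 3T3-L1 cells than in RAW264.7 cells over the 4 conditions. This bound was set with the lowest signal above background or the dim spot's own signal, whichever was higher. The Cy5 signal normalised in this way also draws on Cy3, so it is not independent of the dim reference. Within 3T3-L1 cells the normalised Cy5 signal was 2.37-fold higher than untreated on the array labelled cortisol, 1.26-fold on that labelled serotonin and 1.17-fold on that labelled cortisol-serotonin. By the Cy5 signal in units given above, the array labelled cortisol-serotonin was instead lower than untreated, at 152 against 185. The dim signals and the missing reference limit what these folds can show.

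S100b, an S100 protein of glia and adipocytes that is secreted and binds Ager, was also near background. Its Cy5 signal was 138, 93.6 and 89.0 units on the 3T3-L1 arrays labelled cortisol, serotonin and cortisol-serotonin and 142 on the untreated array. On the RAW264.7 arrays it was 6.95, 6.39 and 7.80 units, below background, on the arrays labelled cortisol, serotonin and cortisol-serotonin, and 58.1 units on the untreated array, the single one above background. By the Cy5 signal after normalisation of both channels, as for S100a9, this gave bounds of at least 1.38-fold, 1.59-fold and 1.36-fold lower than untreated. The Cy3 signal of the reference at the spot was also highest on the untreated RAW264.7 array among the 4, with 67.9 units against 17.8 to 23.4 units on the others, so the reference moved with the sample there.

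S100a1, an intracellular member that regulates calcium handling in muscle, was higher in RAW264.7 cells. Its log2 ratio, the mean of 2 probes, was -0.65, -0.83 and -0.89 on the 3T3-L1 arrays labelled cortisol, serotonin and cortisol-serotonin and -0.84 on the untreated array. On the RAW264.7 arrays it was 0.90, 0.70, 0.86 and 1.06 in the same order. The groups did not overlap, and the mean difference, 3T3-L1 minus RAW264.7, was -1.68 ± 0.17 (SD over the 4 conditions), 3.21-fold. The treated arrays differed from untreated by at most 0.36 in size in either cell line. Its neighbour S100a13 on the opposite strand did not share this pattern. S100a13 carries Fgf1 and Il1a out of the cell by a route without a signal peptide, and its log2 ratio was 0.85 on the 3T3-L1 array labelled cortisol, 0.39 and 0.33 on those labelled serotonin and cortisol-serotonin and 0.35 on the untreated array, against 0.24, 0.09, 0.29 and 0.33 on the RAW264.7 arrays in that order. The 3T3-L1 array labelled cortisol stood 0.51 ± 0.30 above untreated, beyond the spot error but under 2-fold, and the arrays labelled serotonin and cortisol-serotonin differed by 0.05 and -0.01.

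S100a11 and S100a10 are partners of annexins. S100a11, which binds Anxa1, had log2 ratios of 1.11, 1.13 and 1.04 on the 3T3-L1 arrays labelled cortisol, serotonin and cortisol-serotonin and 1.07 on the untreated array, against 0.44, 0.40, 0.34 and 0.56 on the RAW264.7 arrays. Of the 6 genes measured on all arrays its difference between the cell lines by the ratio varied least over the conditions, at 0.65 ± 0.10 (SD over the 4 conditions), 1.57-fold. By the Cy5 signal after normalisation of both channels the difference varied more. It was 0.75, 1.66 and 0.35 with the labels cortisol, serotonin and cortisol-serotonin and 0.72 between the untreated arrays.

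S100a10, which forms a tetramer with Anxa2 at the cell surface, had log2 ratios of -0.21, 0.59 and 0.41 on the 3T3-L1 arrays labelled cortisol, serotonin and cortisol-serotonin and -0.15 on the untreated array. The arrays labelled serotonin and cortisol-serotonin stood 0.74 ± 0.29 and 0.56 ± 0.29 above untreated, beyond the spot error and under 2-fold, and the array labelled cortisol differed by -0.06 ± 0.29. In RAW264.7 cells the ratios were 0.10, 0.11 and 0.11 on the treated arrays and 0.37 on the untreated array, and the cell lines overlapped. This spot was unsteady: its reference signal had an SD of 1.63 on the log2 scale over the 8 arrays, larger than that of 99.5% of 14589 probes above background in Cy3, whose median was 0.32. For S100a8 the same SD was 0.41, larger than that of 64.4% of the probes. By the Cy5 channel alone, quantile normalised between arrays, the treated 3T3-L1 arrays in the same order stood 1.03, 1.64 and 1.52 above untreated, all past 2-fold. In RAW264.7 cells the array labelled cortisol-serotonin was 1.78 by Cy5 alone against -0.26 by the ratio, so that its sign turned. Between the cell lines S100a10 was by Cy5 alone on average 2.02 log2 units higher in 3T3-L1 cells than in RAW264.7 cells, against -0.01 by the ratio.

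S100a4 and S100a6 gave bright spots that the scanner software marked as non-uniform on the 3T3-L1 arrays, and such spots were left out. S100a6, calcyclin, which binds Cacybp and Sugt1, then had no value in 3T3-L1 cells, and in RAW264.7 cells its log2 ratio was -0.36, -0.53 and -0.85 on the arrays labelled cortisol, serotonin and cortisol-serotonin and -0.33 on the untreated array. The largest difference was -0.52 ± 0.31 on the array labelled cortisol-serotonin. With the marked spots kept, an alternative chosen after seeing the data, S100a6 was 0.31, 0.55 and 0.30 on the treated 3T3-L1 arrays in the same order and 0.61 on the untreated array, above every RAW264.7 array by a mean of 0.96 ± 0.22 (SD over the 4 conditions).

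S100a4, known as a fibroblast marker and as a binder of the myosin Myh9, had log2 ratios of 0.80, 0.65 and 0.73 on the treated RAW264.7 arrays and 0.91 on the untreated array. With the marked spots kept it was -0.69, -0.46 and -0.52 on the treated 3T3-L1 arrays and -0.21 on the untreated array, below every RAW264.7 array, with a mean difference of -1.25 ± 0.18 (SD over the 4 conditions), 2.37-fold. It was thus lower against the reference in the fibroblast line than in the macrophage line. The reference was unsteady at its 2 probes, with SDs of 0.89 and 0.66 on the log2 scale, larger than for 92.6% and 85.0% of probes. Its mean Cy3 signal, marked spots included, was 96262 to 147303 units on the 3T3-L1 arrays and 36504 to 77728 on the RAW264.7 arrays. The mean Cy5 signals overlapped, at 61613 to 67701 and 53541 to 106512 units. On the 3T3-L1 arrays 1 of its 2 spots was marked on each array. Where the same unmarked probe could be compared, S100a4 was -0.21 ± 0.30 on the array labelled serotonin and -0.40 ± 0.30 on that labelled cortisol-serotonin, relative to untreated.

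S100a3, known from the cuticle of the hair follicle, had differences from untreated of opposite sign in the cell lines by the ratio. Its log2 ratio was 0.09, -0.05 and -0.11 on the treated 3T3-L1 arrays and -0.18 on the untreated array, so that the differences of 0.28, 0.14 and 0.07 were within their errors of 0.29. In RAW264.7 cells it was -0.50, -0.71 and -0.65 on the treated arrays and -0.03 on the untreated array. The differences of -0.46, -0.68 and -0.62 were beyond their errors of 0.30 each and under 2-fold, and all 3 rest on the same untreated array. By the Cy5 channel alone the opposite sign held only with the label cortisol: S100a3 was 0.39, -0.05 and -0.12 on the treated 3T3-L1 arrays and -0.23, -0.25 and -1.02 on the treated RAW264.7 arrays.

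**Figure D3:**
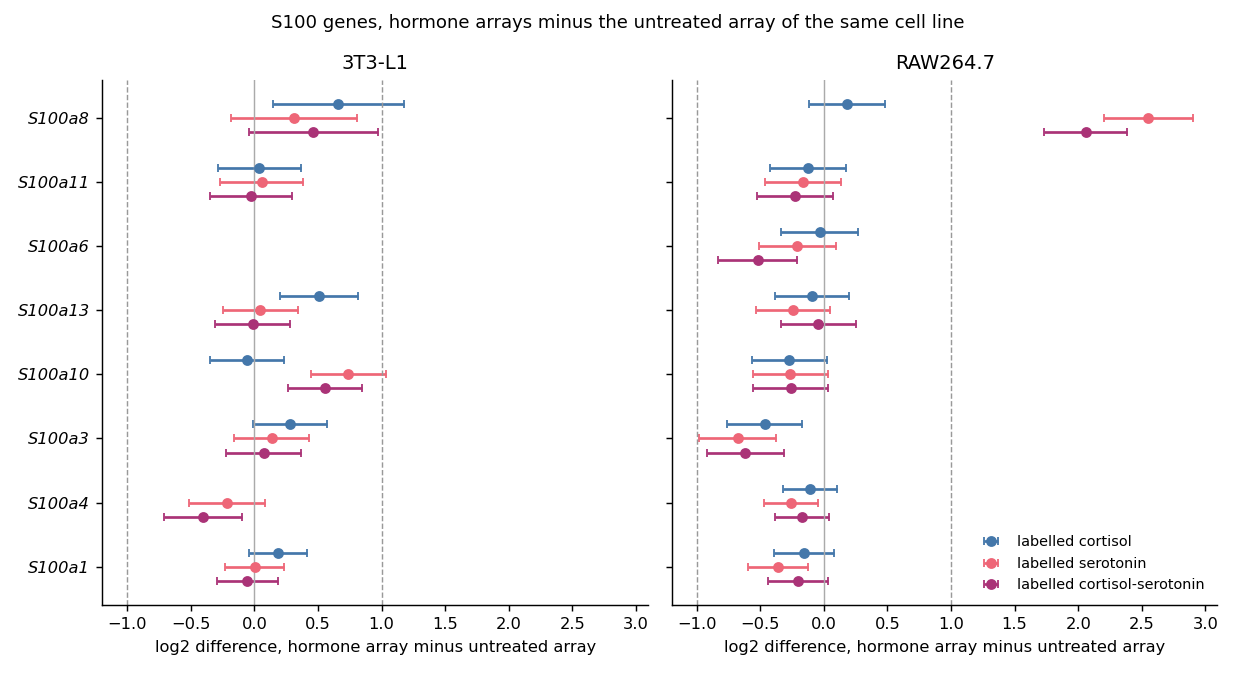
Difference of the log2 ratio, hormone array minus untreated array (x axis), for 8 S100 genes (y axis) in 3T3-L1 cells (left) and RAW264.7 cells (right); bars are the combined error of the scanner software, which covers spot noise only, and dashed lines mark 2-fold. Only S100a8 in RAW264.7 cells passes the dashed line, at 2.55 and 2.06.

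At the 2-fold threshold that the study used, none of the measured genes among the 10 S100 genes selected had changed by the ratio in 3T3-L1 cells. The counts were 0 of 6, 0 of 7 and 0 of 7 for the arrays labelled cortisol, serotonin and cortisol-serotonin. Among all genes measured, 1.65%, 1.24% and 1.43% passed it in these comparisons. In RAW264.7 cells it was 0 of 8, 1 of 8 and 1 of 8, the one being S100a8, and 0.0831%, 0.915% and 0.255% of all genes passed. S100a9 and S100b were not among the genes measured by ratio. Apart from S100a8, the other 7 measured genes were lower than untreated by the ratio on each treated RAW264.7 array, against 43.4%, 58.1% and 50.8% of all genes on the arrays labelled cortisol, serotonin and cortisol-serotonin. By the Cy5 channel alone, 4, 7 and 4 of these 7 genes were lower, so the direction depended on the reference channel. By the ratio, the medians of the 8 genes were -0.12, -0.25 and -0.21 on the arrays labelled cortisol, serotonin and cortisol-serotonin, against 0.02, -0.04 and -0.00 over all genes. These 3 comparisons share the untreated array, and most of the single differences were within the spot error. In 3T3-L1 cells the medians were 0.23, 0.06 and -0.01, against 0.01, 0.01 and 0.02 over all genes.

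Among inflammatory genes known to be induced together with S100a8 and S100a9, Lcn2 and Saa3 were higher on the same RAW264.7 arrays. Lcn2, a siderophore-binding protein, differed from untreated by -0.16, 1.63 and 0.83 on the arrays labelled cortisol, serotonin and cortisol-serotonin, and Saa3, an acute-phase serum amyloid, by 0.03, 1.35 and 1.18. Of the 6 measured genes of this list of 8, 2 were at least 2-fold higher with the label serotonin, and 1 was higher and 1 lower on that labelled cortisol-serotonin, where the collagenase Mmp9 was -1.04. Tnf differed by 0.13, -0.44 and 0.07. In 3T3-L1 cells no gene of the list was 2-fold higher in any comparison, while Mmp9 (-1.74) and the chemokine Cxcl2 (-1.70) were 2-fold lower with the label serotonin and Mmp9 (-1.54) with the label cortisol-serotonin.

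Like S100a8, both Lcn2 and Saa3 took larger shares of the Cy5 signal in the co-cultured 3T3-L1 cells. Their shares were 783 to 1229 and 1404 to 1884 ppm of all Cy5 signal in 3T3-L1 cells, against 142 to 438 and 13.6 to 37.8 ppm in RAW264.7 cells. By the ratio, fibroblast markers had a positive median difference from untreated on each treated RAW264.7 array, also on that labelled cortisol, where S100a8 differed by 0.18. The medians were 0.25 (9 genes measured), 0.73 (8 genes) and 0.38 (7 genes) on the arrays labelled cortisol, serotonin and cortisol-serotonin. The collagen gene Col3a1 was 2.0 on the array labelled serotonin and -0.08 on that labelled cortisol-serotonin. The Cy5 signal of Col3a1 itself was 73.9 units on the array labelled serotonin, against 90 units on the untreated array. Such units are not scaled for the brightness of an array, so they do not give the direction of the sample's own change. The summed signal of all 12 fibroblast markers was 30.3, 36.0 and 32.2 ppm on the arrays labelled cortisol, serotonin and cortisol-serotonin. It was 33.4 ppm on the untreated array. The share of S100a8 was 35.0 ppm on the arrays labelled serotonin and cortisol-serotonin against 7.56 ppm on the untreated array. The part of transcripts of the other cell line in the S100a8 result was not tested. Of 8 neutrophil granule genes, 3 were above background on each RAW264.7 array, and their summed signal was 113, 85.3 and 92.7 ppm on the treated arrays in the same order and 97.5 ppm on the untreated array.

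**Figure D4:**
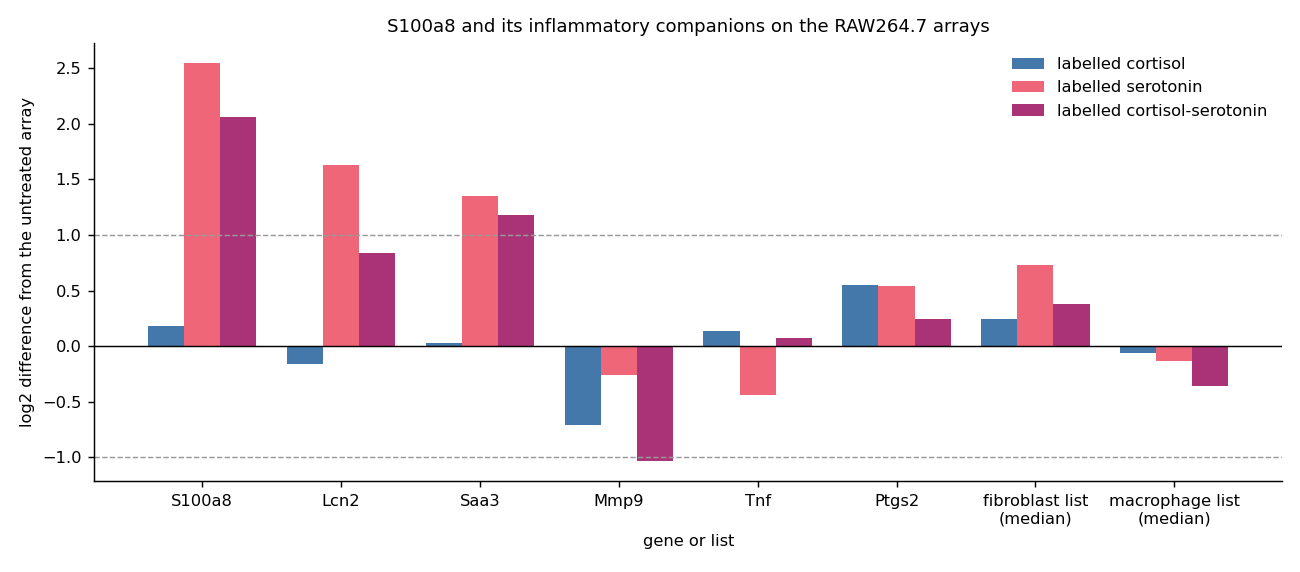
Difference of the log2 ratio from the untreated array (y axis) in RAW264.7 cells for S100a8, 5 inflammatory genes and the medians of the fibroblast and macrophage marker lists (x axis); bars are single arrays, or medians over the measured genes of a list, and dashed lines mark 2-fold. S100a8, Lcn2 and Saa3 are higher on the arrays labelled serotonin and cortisol-serotonin and not on that labelled cortisol, and the fibroblast list has medians of 0.25, 0.73 and 0.38.

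Factors known to drive S100a8 and S100a9 transcription were not 2-fold higher in any comparison. The C/EBP factors Cebpb and Cebpd differed from untreated by -0.06 and -0.32 on the RAW264.7 array labelled serotonin and by -0.04 and -0.56 on that labelled cortisol-serotonin. The myeloid factor Spi1 was 2-fold lower on the RAW264.7 array labelled cortisol-serotonin (-1.21), on which S100a8 was high, and was -0.24 on that labelled serotonin. Of 8 listed factors, 7 were measured in RAW264.7 cells.

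The receptors and binding proteins of S100 proteins at the cell surface held no 2-fold change in any of the 6 comparisons (6 of 8 listed genes measured). Tlr4, the receptor of calprotectin, had log2 ratios of -2.45, -1.87 and -1.97 on the treated 3T3-L1 arrays and -2.38 on the untreated array, against 0.24, 0.22, 0.04 and 0.37 on the RAW264.7 arrays, so that it was lower in the cell line where S100a8 was high. Bsg, a binder of S100a9, ran the other way, with ratios of 2.20, 2.39, 2.59 and 2.21 in 3T3-L1 cells against 0.48, 0.57, 0.01 and 0.20 in RAW264.7 cells. Ager was above background in Cy5 on 1 array of each cell line.

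A list of 14 genes held intracellular partners, export cargoes and genes of plasminogen activation. Of these, Plau, the plasminogen activator urokinase and not an intracellular partner, had 4 of the 5 changes past 2-fold. It was -1.05, -1.79 and -1.36 on the 3T3-L1 arrays labelled cortisol, serotonin and cortisol-serotonin and -1.38 on the RAW264.7 array labelled serotonin. The fifth was Il1a, a cargo of S100a13, which was 1.11 on the 3T3-L1 array labelled cortisol, the array on which S100a13 was highest, and was below background in RAW264.7 cells. Myh9, the partner of S100a4, was -0.68 on the 3T3-L1 arrays labelled serotonin and cortisol-serotonin, under 2-fold. The other EF-hand proteins, such as calmodulins, calpains and reticulocalbins, held no 2-fold change (13 to 15 of 16 listed genes measured), and their medians lay between -0.10 and 0.00 in all 6 comparisons.

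Of the 8 other S100 genes on the array, S100a16 and S100a5 were measured on all arrays. S100a16, a widely expressed family member, was on average 2.65 ± 0.23 log2 units (SD over the 4 conditions) higher in 3T3-L1 cells than in RAW264.7 cells without overlap, by the probe measured on every array, and S100a5 overlapped. S100a14 was above background on all 4 arrays of 3T3-L1 cells, where it was 0.82 above untreated on the array labelled cortisol. In RAW264.7 cells it was above background on 2 of 4 arrays. There it stood 0.86 ± 0.52 above untreated on the array labelled serotonin, with dim Cy5 signals of 108 units against 40.0 on the untreated array. S100a7l2 was above background in Cy5 in 3T3-L1 cells only. Its log2 ratios there were 1.78, 2.89 and 2.84 on the arrays labelled cortisol, serotonin and cortisol-serotonin and 1.11 on the untreated array. It was thus 3.44-fold and 3.31-fold higher than untreated on the arrays labelled serotonin and cortisol-serotonin. The reference at this spot was unsteady on the RAW264.7 arrays. Its Cy3 signal was 157, 1357 and 667 units on those labelled cortisol and cortisol-serotonin and the untreated one. On that labelled serotonin it was below background. On the 3T3-L1 arrays it was 1183 to 1598 units. How much the spot itself affected the difference between the cell lines was not tested. S100a2, S100a7a, S100g and S100z were at or near background.

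By distance over the 6 treated minus untreated differences, the genes whose pattern was nearest to S100a8 among 10969 were Cited1 (distance 1.48), Flywch2 (1.57) and Bcr (1.65), where the length of the S100a8 pattern itself is 3.39. Cited1 was 1.38 and 1.34 on the RAW264.7 arrays labelled serotonin and cortisol-serotonin. For S100a10, with a length of 1.04, the nearest named gene was Tbc1d32 (0.26), and for S100a3, with a length of 1.08, these were Nos3 (0.37) and Defb25 (0.37). The 6 differences rest on 8 arrays, and the 3 of each cell line share its untreated array.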

How the data were processed

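RNA of 8 co-cultures was measured on two-colour Agilent arrays. The authors scanned them with Agilent Feature Extraction (10.5.1.1 per the labels), and the deposited files give median signal and background intensity per spot, processed intensity, a log10 ratio with its error, and a p-value per spot that was not used. A deposited value table equals that log10 ratio within 0.005 at all 43020 spots of each array. The deposited files hold no log2 values: log2 ratios of Cy5 to Cy3 were computed with limma 3.58.1 (R 4.3.3; normexp, offset 50; loess within arrays, controls without weight and then left out), without spots marked as outliers. Spots of a probe and probes of a gene well above background in both channels were averaged in Python 3.11.15. Accessions of 27508 probes (69.8%) matched a RefSeq table (GRCm38.p6, names and gene order). Where the reference was below background, Cy5 signals gave values or bounds. These were recomputed after loess and quantile normalisation of the mean log intensities of both channels, a step that draws on Cy3. Values by the Cy5 channel alone came from quantile normalisation of the Cy5 signals between arrays. The procedure was tested on simulated data.

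All 10 members are named, up to 4 genes per list by largest difference, and 3 nearest patterns for 3 members. Members, 7 gene lists and 4 marker lists were chosen with earlier results of these data known. Changes were counted at 2-fold, and 1 array per condition allowed no test. The number of arrays limits the precision.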

Additional observations from a re-analysis of the deposited data

Results flagged for a closer look

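S100a3 stood out because its differences from untreated had opposite signs in the cell lines on every array, by the ratio. They were 0.279, 0.136 and 0.073 on the 3T3-L1 arrays labelled cortisol, serotonin and cortisol-serotonin, and -0.463, -0.678 and -0.618 on the RAW264.7 arrays (log2 scale). By the Cy5 channel alone the 3T3-L1 values were 0.39, -0.05 and -0.12, so the opposite sign held only with the label cortisol. The difference between the cell lines was not tested, and the 3 values of a cell line share 1 untreated array.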

How the results depend on the processing

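Counts of the selected S100 genes past 2-fold moved under some settings. In 3T3-L1 cells, where the count was 0 throughout, the array labelled cortisol gave 1 at a 1.5-fold threshold, 2 by the Cy5 channel alone, 3 with median centring in place of loess and 1 without the filter on dim probes. The array labelled serotonin gave 1 at 1.5-fold, 1 by Cy5 alone and 6 with median centring, and that labelled cortisol-serotonin gave 1 by Cy5 alone and 4 with median centring. Median centring moved the median of all genes by 0.59, 1.07 and 0.99 in these comparisons, against -0.08, -0.17 and -0.10 in RAW264.7 cells. In RAW264.7 cells, where the count was 1, the array labelled serotonin gave 2 at 1.5-fold, and that labelled cortisol-serotonin gave 2 at 1.5-fold and 3 by Cy5 alone. Genes without overlap between the cell lines numbered 3, and 5 without the filter on dim probes or, as an alternative chosen after seeing the data, with spots marked as outliers kept. Of the single values, 36 of the comparisons between cell lines moved by less than their spread and 6 by more, and of those between treatments 273 by less than their error and 35 by more. S100a8 on the RAW264.7 array labelled serotonin was 2.16 by Cy5 alone against 2.55. No paired analysis was possible because each group had 1 array and the labels give no replicate numbers. Signal over background limits S100a9 and S100b, and the cause of the other shifts was not tested.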
